A study of Mus musculus with 8 samples.

Results

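Lymphatic endothelial cells (LECs) line the vessels that drain fluid, lipid and leukocytes from the lung. They were taken here as the cells that carry the authors' label EC_lymphatic in a single-cell RNA data set of mouse lung, which is 512 of 41106 cells. The CS mice gave 308 of them (C2 85, C5 103, D2 53 and D5 67) and the room air mice gave 204 (F1 35, F3 74, M1 71 and M3 24). All mice were C57BL/6 and carried Sftpc-CreERT2-mTmG, in which tamoxifen turns on eGFP in cells that express Sftpc, while cells without recombination keep the red reporter tdTomato. LECs do not express Sftpc, so the reporter does not select them. All received tamoxifen at 8 to 10 weeks of age, also the controls. Beginning 2 weeks afterwards, littermates either breathed the smoke of research cigarettes for 10 months (cigarette smoke, CS, 4 mice) or only room air (RA, 4 mice). Each library is 1 mouse, and digested lung was depleted of CD45+ immune cells and then recombined with a portion of the immune cells. The design asks how LECs of smoke-exposed lungs differ from those of control lungs.

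Lymphatic endothelium arises in the embryo mostly from veins, when the transcription factor PROX1 turns on the lymphatic programme. VEGF-C and VEGF-D signal through the receptor FLT4 (VEGFR3), with NRP2 as coreceptor, to drive lymphatic growth and survival, and the chemokine CCL21 leads dendritic cells and T cells that carry CCR7 into the vessels. Blunt-ended initial vessels take up fluid and cells, and collecting vessels with valves move the lymph onward.

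Values are mean transcripts per 10,000 over the LECs of a mouse, so n is the number of mice. The kit reads 3' ends and counts unique molecular identifiers (UMIs), each molecule once whatever its length. The median number of UMIs per LEC ran from 3938 to 5619 over CS mice and from 3336 to 6004 over RA mice (exact two-sided permutation p = 0.571), and the UMIs summed over the LECs of a mouse between 183040 and 741100. With 4 mice against 4 the smallest exact p is 0.0286. The sex-linked transcripts went against the label in the LECs of all 4 CS libraries and matched it in the 4 RA libraries. Those labelled male, C2 and C5, held Xist at 11.2 and 10.2 and no Ddx3y, and those labelled female, D2 and D5, held Ddx3y at 1.49 and 1.05 and no Xist. Each group therefore still held 2 libraries with Xist and 2 with Ddx3y. Of all cells, 394 shared a barcode sequence with a cell of another library, among them 9 LECs, and none of these shared it with another LEC. Transcripts of other cells stood out in single mice. The neutrophil markers S100a8, S100a9 and Retnlg summed to 8.06 in RA mouse F1 and to at most 0.141 in every other mouse. The airway markers summed to 139 in RA mouse F3, against 0.113 to 7.36 in the other mice, and the erythrocyte markers to 22.3 in CS mouse D2, against 0.262 to 1.13. The listed markers Gkn3 (artery), Wt1 (mesothelium), Marco and C1qa (macrophage) and Xcr1 (dendritic cell) were at 0 in all LECs, and 0 of 512 cells allows a share of cells with a UMI of up to 0.586%, counting error only. The authors had already subtracted free RNA, which lowers such values.

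The label fitted the lymphatic markers. Ccl21a, the CCR7 ligand, stood at 171 ± 32.7 transcripts per 10,000 (SD, n = 8 mice) and was found in 97.1% of LECs. Levels were compared over the 26 types that had at least 20 cells in at least 3 mice, which leaves out mature dendritic cells, cDC1, cDC2, pDC, PNEC and the type labelled M. Among the 26, the next type for Ccl21a was alveolar fibroblasts at 0.135. Mmrn1, a matrix glycoprotein of lymphatic endothelium, stood at 28.0 ± 4.36 (SD, n = 8) and Reln, which encodes the secreted protein reelin, at 23.7 ± 3.27 (SD, n = 8), each in 99.0% of LECs. Prox1 stood at 11.5 ± 2.36 (SD, n = 8) in 92.8% of LECs, with alveolar macrophages next of the 26 at 0.109. The 84 neuroendocrine cells (PNEC), outside the 26, held Prox1 at 3.31 over all their cells. The receptor Flt4 was at 13.0 ± 0.879 (SD, n = 8), with arterial cells next at 0.828. These 5 of the 7 lymphatic markers were highest in LECs among the 26 types compared. The remaining pair was not. Lyve1, the hyaluronan receptor of initial lymphatics, stood at 5.41 ± 2.95 (SD, n = 8) in LECs and was higher in arterial (13.9) and venous (11.8) cells. Pdpn, podoplanin, stood at 3.51 ± 0.826 (SD, n = 8) and was higher in AT1 cells (8.77). Since the authors named types by such genes, these levels are a description and were not tested. Ccl21a has near-identical copies in the mouse genome, so reads of other copies may be counted under its name.

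**Figure D1:**
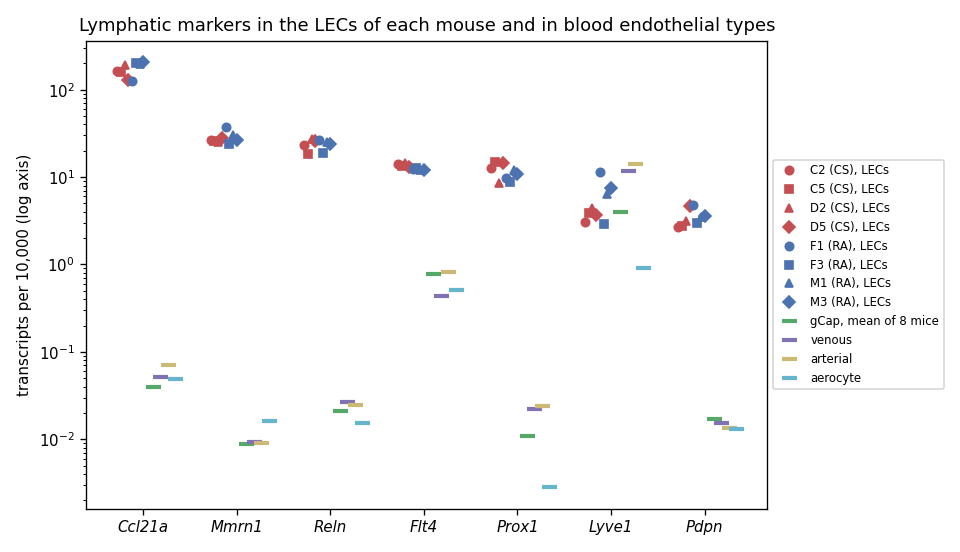
Transcripts per 10,000 (log axis) of the 7 lymphatic markers in the LECs of each CS mouse (red) and RA mouse (blue), and as means of mice in the 4 blood endothelial types (bars). The LEC values of Ccl21a, Mmrn1, Reln, Flt4 and Prox1 lie above every blood endothelial mean, while Lyve1 lies below the arterial mean of 13.9 in every mouse.

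Most other genes of lymphatic identity were also highest in LECs. The venous and lymphatic transcription factor Nr2f2 stood at 10.5 ± 1.30 (SD, n = 8), the transcription factor Maf at 12.3 ± 1.37 and the VEGF-C coreceptor Nrp2 at 13.5 ± 3.36. The scavenger receptor Stab1 stood at 12.9 ± 1.51 and the transcription factor Tbx1 at 3.14 ± 0.772. In all, 12 of the 17 genes of the identity list were highest in LECs. Besides Lyve1 and Pdpn, the exceptions were Cp (8.18, goblet cells 10.5), Sox18 (1.83, arterial cells 4.14) and Hhex (0.734, NK and cytotoxic T cells 1.58). Levels of the endothelial genes Pecam1 (7.36) and Cdh5 (5.15) lay below those of gCap cells (15.2 and 13.1), the general capillary cells that the authors label EC_capillary_B. Markers of blood vessel types were lower in LECs than in the types they mark, to differing degrees. The gCap genes Plvap, of the fenestral diaphragm, and Gpihbp1, the lipoprotein lipase anchor, stood at 4.49 (in 73.2% of LECs) and 1.47 (in 35.7%), against 11.4 and 12.3 in gCap cells. Vwf, the clotting factor carrier, stood at 0.424 in LECs and 45.2 in venous cells, the venous gene Slc6a2 at 0.0275 and 15.9, and the gCap receptor gene Aplnr at 0.00352 against 0.624 in gCap cells.

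By the ratio of the LEC level to the next of the 26 types, Ccl21a came first at 1267, followed by Mmrn1 at 679, Reln at 298 and Prox1 at 105. Then came Pld5 (69.4), Sh3gl3 (37.9), the hyaluronan receptor Stab2 (36.5), Gm525 (26.0), the nuclear receptor gene Nr5a2 (22.5) and Thrsp (20.6). The last 5 of the 15 were A830019P07Rik (16.3), Flt4 (15.7), Apba2 (14.3), F8, which encodes coagulation factor VIII (11.1), and the actin-bundling gene Fscn1 (9.67). For 6 of the 15, a type outside the 26 held more than that next type. Fscn1 stood at 2.33 over the 40 mature dendritic cells, above the LEC level of 1.91, and the LEC level of Prox1 was 3.46 times that of PNEC. Sh3gl3, Gm525, Nr5a2 and A830019P07Rik were 20.7, 23.8, 11.4 and 8.59 times the highest of the types left out. F8 stood at 1.93 ± 0.820 (SD, n = 8) in LECs and at 0.174 in venous cells, the next type. Stab2 stood at 5.16 ± 2.14 (SD, n = 8), with T cells next at 0.142. Apart from mitochondrial and ribosomal protein genes, the most abundant transcripts were Malat1 (227), Ccl21a (171), Gm42418 (52.1), Tmsb4x (51.6), Fth1 (41.8), Actb (29.0), Mmrn1 (28.0), Selenop (27.7), Timp3 (27.3) and Tpt1 (23.8). Selenop, which encodes the selenium carrier protein, was also higher in LECs than in any other of the 26 types, with aerocytes (EC_capillary_A) next at 17.5.

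Among themselves, LECs fell into 2 subgroups by k-means clustering on principal components (mean silhouette 0.272, the highest of 2 to 5 subgroups, with 3 subgroups close at 0.266). The larger held 391 cells. It was led by Npnt, Stab2 and Csmd1, which stood at 2.60, 7.04 and 2.44 against 0.150, 0.753 and 0.242 in the other cells. The smaller held 121 cells, 23.6% of LECs, and was led by Igfbp5, an insulin-like growth factor binding protein (22.5 against 0.285), Nts, neurotensin (9.27 against 0.161), Clca3a1 (2.56 against 0.0181), Nrxn3 (2.16 against 0.0484) and Dapk1 (3.12 against 0.120). Median UMIs per cell were 4738 in the larger and 5697 in the smaller subgroup, and the mean mitochondrial percent was 1.17 and 1.78. The part of depth and mitochondrial share in the split was not tested. Both subgroups held the lymphatic genes. Prox1 stood at 11.9 in the larger and 12.2 in the smaller, Mmrn1 at 26.7 and 29.3 and Ccl21a at 183 and 130.

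Markers of initial and of collecting vessels did not split cleanly between them. Of the initial vessel list, Mrc1, the mannose receptor, was at 5.81 in the larger and 1.55 in the smaller subgroup, and Ptx3, pentraxin 3, at 2.45 and 0.348. Lyve1, on the same list, went the other way, at 1.88 and 13.7. Of the collecting vessel list, Foxp2, a transcription factor, was at 1.65 in the larger and 4.68 in the smaller subgroup, and Cd9, a tetraspanin, at 7.73 and 16.5. The smooth muscle actin gene Acta2 was near 0 in both, at 0.0191 and 0.0161. The subgroups are therefore called by their leading genes. Genes of signalling also differed in level. Nrp2 was at 15.9 in the larger and 8.82 in the smaller subgroup, Angpt2, the TIE2 ligand angiopoietin 2, at 2.77 and 0.650, and the water channel gene Aqp1 at 23.5 and 8.22. Ackr3, a scavenger receptor for CXCL12 and adrenomedullin, was at 0.148 and 2.39, and Il7, a lymphocyte survival factor, at 0.495 and 1.18. These genes took part in the clustering, so none was tested.

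The Igfbp5- and Nts-high subgroup made up 22.4% of LECs in C2, 16.5% in C5, 24.5% in D2 and 25.4% in D5. In RA mice it made up 40.0% in F1, 20.3% in F3, 26.8% in M1 and 29.2% in M3. The mean was 22.2 ± 4.00% in CS (SD, n = 4) and 29.0 ± 8.21% in RA (SD, n = 4), the groups overlapped, and the exact two-sided permutation p was 0.2. A split into 3 subgroups set apart 16 cells, none of them from F1 or M3. They held blood vessel genes such as Adgrl3 (22.5 against 0.0960 in other LECs), Bmp6 (13.2 against 0.0818), Flt1, the VEGF receptor 1 gene (9.23 against 0.0630), and Vwf (10.1 against 0.126). The same cells held Prox1 at 7.33 and Ccl21a at 77.9. Their median UMI count was 8693, against 4910 in the other LECs.

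The share of LECs was taken among cells of the 18 CD45-negative types, since immune cells were removed and added back by the sort. It was 3.76% in C2, 2.62% in C5, 1.18% in D2 and 1.52% in D5 for CS mice. In RA mice it was 0.631% in F1, 1.47% in F3, 1.96% in M1 and 1.51% in M3. C2 and C5 lay above every RA mouse, and D2 and D5 lay within the RA range. The means were 2.27 ± 1.17% (SD, n = 4) and 1.39 ± 0.553% (SD, n = 4), a ratio of 1.63 with an exact two-sided permutation p of 0.229. As a share of all cells the p was 0.286, and as a share of endothelial cells 0.343. This difference did not exceed the SD of the CS mice.

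**Figure D2:**
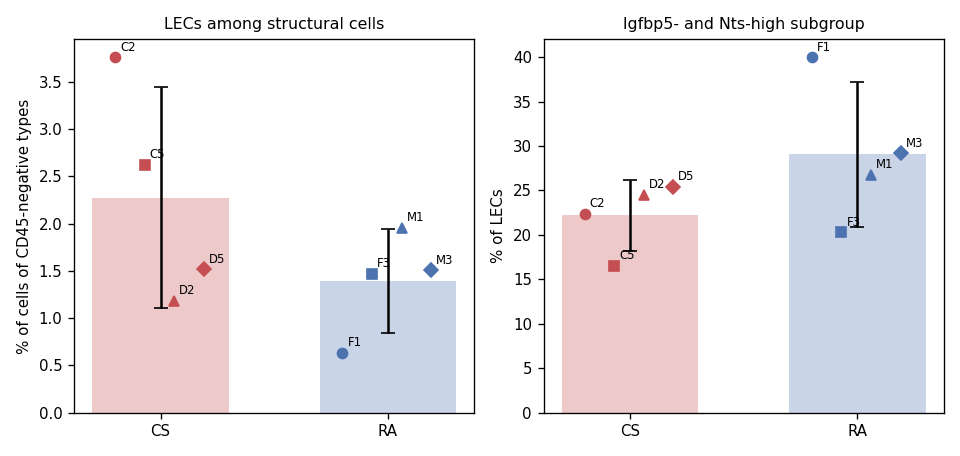
Left, LECs as a percentage of cells of CD45-negative types, and right, the Igfbp5- and Nts-high subgroup as a percentage of LECs. Points are mice, bars are means of 4 mice and error bars are SD. In both panels the CS and RA mice overlap, with C2 highest on the left at 3.76% and F1 highest on the right at 40.0%.

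Between CS and RA mice, 8281 genes were tested in LECs by limma. No gene was called at 0.05 after adjustment (0.0% called), the smallest adjusted p being 0.0676. At an unadjusted limma p under 0.05 there were 476 genes higher (5.75%) and 306 lower (3.7%) in CS. In 246 genes (2.97%) every CS mouse lay above every RA mouse, and in 176 (2.13%) every CS mouse lay below. Each sequencing lane held 1 mouse of each group, and with lane as a block 4 genes were called, Malt1 and Ldlrad4 higher and Hsp90b1 and Tinagl1 lower in CS (0.0242% each way). Limma on summed UMIs called 5 genes higher and 6 lower (0.0725%), and limma on genes found in at least 25% of cells called 3 higher (0.0675%) and 4 lower (0.09%). A Wilcoxon test over cells, which takes cells of a mouse as independent, called 18 higher (0.217%) and 21 lower (0.254%). With edgeR on UMIs summed per mouse, an alternative added after the data were seen, 5 genes were called higher (0.0604%) and 9 lower (0.109%). No gene was called by limma on the means over cells with any of the 8 mice left out. The genes below are named by the smallest p among those whose groups did not overlap, and by their lists.

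Among genes higher in CS, Malt1 and Ldlrad4 passed with the lane block. Malt1, a signalling protease of the NF-kB pathway, stood at 3.97 in C2, 4.45 in C5, 4.96 in D2 and 3.95 in D5, and at 0.732 in F1, 2.29 in F3, 2.35 in M1 and 2.06 in M3. The lowest CS mouse lay above the highest RA mouse by more than 1 transcript, and F1 was the lowest of all. The log2 difference was 0.94 (SE 0.183, limma adjusted p = 0.0676, and 0.0435 with lane as a block). It was not called on summed UMIs (adjusted p = 0.155), by edgeR (0.192) or in the larger subgroup alone (0.242, log2 difference 0.86). Ldlrad4, an inhibitor of TGF-beta signalling, stood at 2.15, 3.09, 2.97 and 2.55 in C2, C5, D2 and D5, and at 0.758, 1.28, 1.62 and 1.27 in F1, F3, M1 and M3. Its groups did not overlap, and its log2 difference of 0.73 (SE 0.146) had a limma adjusted p of 0.0676, of 0.0497 with lane as a block, of 0.0227 in edgeR and of 0.440 in the larger subgroup alone. In that subgroup the log2 difference of Ldlrad4 was 0.82.

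Nav3, a microtubule-associated neuron navigator gene, ranged from 3.14 to 5.24 in CS and from 1.08 to 2.57 in RA (log2 difference 0.87, SE 0.177, limma adjusted p = 0.0770). Nav3 was also called by edgeR (adjusted p = 0.0484) and by limma on summed UMIs (adjusted p = 0.0373). By limma it was not called with lane as a block (adjusted p = 0.0624) or in the larger subgroup alone (0.343, log2 difference 0.79). Nav3 was among the leading genes of that subgroup, at 3.95 against 0.769 in the other LECs. The unnamed transcript 4930578G10Rik ranged from 7.90 to 10.7 in CS mice and from 4.18 to 5.60 in RA mice (log2 difference 0.85, SE 0.161). In gCap and venous cells it was nearly absent, at no more than 0.0155 in either group. The other 6 genes named as higher were Nxpe4, S100pbp, Arhgap28, Lrrc8d, Mtm1 and Wwox, with log2 differences from 0.35 to 0.70 and limma adjusted p values from 0.0770 to 0.121. Nxpe4 was called by limma on summed UMIs (adjusted p = 0.0473) and by edgeR (0.0484). Of these 6, only Wwox stood above 2 transcripts per 10,000 in either group, at 4.11 ± 0.791 in CS and 2.16 ± 0.504 in RA (SD, n = 4 each).

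Of the 10 genes named as lower in CS, Hsp90b1, Pdia6, Hspa5, Sdf2l1 and Serpinh1 belong to the endoplasmic reticulum (ER) chaperone list, and Hsp90ab1 is a cytosolic chaperone. The other 4 were Cebpd, Tinagl1, Rbp7 and Actb. Sdf2l1 was tested only because it was found in at least 10% of LECs of RA mice, and it fell below that share in CS mice. Cebpd, a transcription factor of the acute-phase response, stood at 2.06, 2.26, 2.47 and 2.55 in C2, C5, D2 and D5 and at 6.39, 4.20, 4.49 and 3.97 in F1, F3, M1 and M3. Every CS mouse lay below every RA mouse, and F1 was the highest (log2 difference -0.77, SE 0.153, limma adjusted p = 0.0676, edgeR adjusted p = 0.0416, and 0.242 in limma on the larger subgroup alone). In that subgroup the log2 difference of Cebpd was -0.84. Tinagl1, a matrix protein gene, ranged from 0.0789 to 0.490 in CS and from 0.624 to 1.55 in RA (log2 difference -0.72, SE 0.143, and -0.40 in the larger subgroup alone). Its adjusted p was 0.0435 in limma with lane as a block, 0.0938 in edgeR and 0.452 in the larger subgroup alone. Rbp7, a retinoid-binding protein gene, was 0.205 ± 0.0494 in CS and 0.731 ± 0.141 in RA (SD, n = 4 each), with no overlap (log2 difference -0.52, SE 0.102, and -0.22 in the larger subgroup alone). Actb, beta-actin, was 21.8 ± 3.69 in CS and 36.3 ± 4.73 in RA (SD, n = 4 each), with every CS mouse at or below 25.3 and every RA mouse at or above 32.0.

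The ER chaperones fold secreted and membrane proteins as they enter the ER, and the unfolded protein response raises their transcription. All 19 genes of the list were tested, and they are called ER chaperones here although Xbp1, for one, is a transcription factor. In 10 of the 19 every CS mouse lay below every RA mouse, beside 2.13% of all genes tested, and in none did every CS mouse lie above. The 10 include Sdf2l1, which passed the filter of 10% of LECs of either group only through RA mice, where it was higher. The median log2 difference over the list was -0.40, beside 0.02 over all genes tested, and 18 of 19 were below 0, with Sel1l at 0.06 as the exception. No member was called by limma on the means over cells. Limma called Hsp90b1 lower with lane as a block, beside 0.0242% of all genes tested. With genes found in at least 25% of cells, which leaves out Sdf2l1, it called Hsp90b1 and Pdia6 lower, beside 0.09%. On summed UMIs it called Hspa5, Hsp90b1, Pdia6, Sdf2l1 and Manf lower, beside 0.0725%. With edgeR these 5 and Creld2 were called lower, beside 0.109%. Without F1 the groups separated in 11 of the 19 genes, and without D2 in 10. In the larger subgroup alone all 19 lay below 0, with a median log2 difference of -0.48, and none was called by limma. The list was drawn up with earlier results of these mice known, so its count is a description.

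Hspa5 encodes BiP, the main ER chaperone, which holds the stress sensors inactive. It stood at 4.19 in C2, 6.85 in C5, 6.34 in D2 and 4.25 in D5, and at 12.5 in F1, 9.98 in F3, 10.7 in M1 and 8.66 in M3. The groups did not overlap, and C5, the highest CS mouse, lay below M3, the lowest RA mouse. The log2 difference was -0.86 (SE 0.177, 95% interval -1.23 to -0.49, limma adjusted p = 0.0770, edgeR adjusted p = 0.0484, and 0.242 in limma on the larger subgroup alone). Hsp90b1, which encodes GRP94, the ER form of HSP90, stood at 2.29, 3.56, 3.37 and 2.88 in C2, C5, D2 and D5. In RA mice it stood at 6.10 in F1, 5.35 in F3, 7.81 in M1 and 6.82 in M3. The highest CS mouse, C5, lay below the lowest RA mouse, F3 (log2 difference -0.90, SE 0.159, limma adjusted p = 0.0676, 0.0435 with lane as a block, 0.0416 in edgeR and 0.175 in the larger subgroup alone). Pdia6, a protein disulfide isomerase, stood at 0.681, 0.830, 1.16 and 0.726 in C2, C5, D2 and D5 and at 1.91, 1.87, 2.67 and 1.75 in F1, F3, M1 and M3. D2 was the highest CS mouse and still lay below all RA mice (log2 difference -0.72, SE 0.135, limma adjusted p = 0.0676, edgeR adjusted p = 0.0227, and 0.242 in limma on the larger subgroup alone). In that subgroup the log2 differences were -0.89 for Hspa5, -1.01 for Hsp90b1 and -0.73 for Pdia6.

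Calr, calreticulin, which binds newly made glycoproteins, ranged from 2.92 to 5.16 in CS and from 5.78 to 7.46 in RA (log2 difference -0.67, SE 0.168, limma adjusted p = 0.190). Its partner Canx, calnexin, did not separate the groups, at 2.08 ± 0.416 in CS and 2.36 ± 0.426 in RA (SD, n = 4 each). Serpinh1, the collagen chaperone HSP47, was 1.74 ± 0.237 in CS and 3.31 ± 0.430 in RA (SD, n = 4 each), with no overlap. The disulfide isomerase Pdia3 was 2.75 ± 0.287 in CS and 4.58 ± 0.714 in RA, again with no overlap. Among secreted or co-chaperone products, Manf ranged from 1.02 to 1.37 in CS and from 1.52 to 2.65 in RA. Creld2 ranged from 0.111 to 0.288 in CS and from 0.403 to 0.642 in RA. Sdf2l1, which slows BiP cycling, ranged from 0 to 0.103 in CS and from 0.256 to 0.695 in RA and was found in 4.55% of LECs of CS mice and 19.6% of those of RA mice. Xbp1, a transcription factor of the unfolded protein response, ranged from 0.583 to 1.18 in CS and from 1.27 to 1.61 in RA. The groups overlapped for Pdia4, P4hb, Dnajb9, Dnajb11, Dnajc3, Hyou1 and Herpud1, with log2 differences from -0.40 to -0.07.

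**Figure D3:**
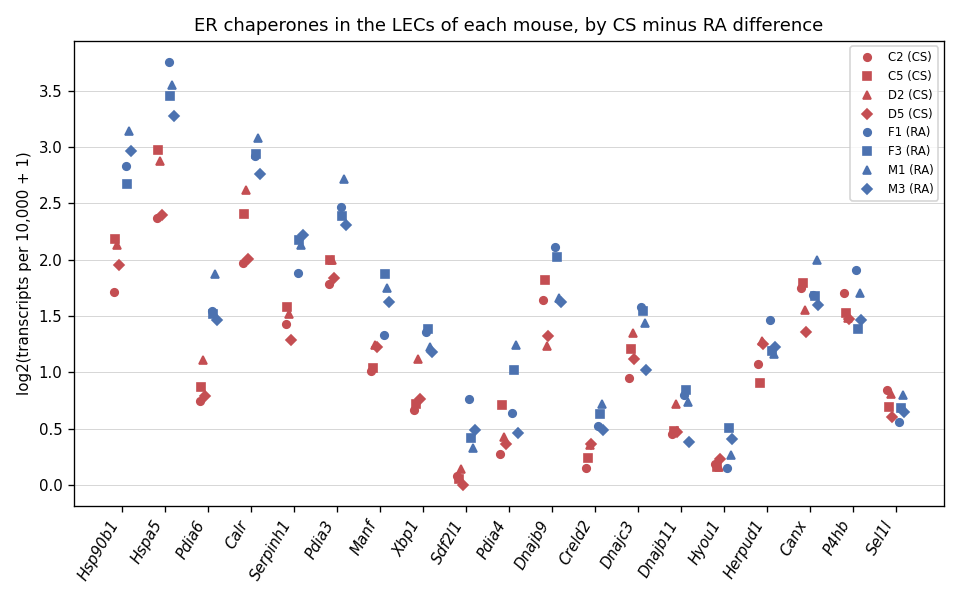
The 19 genes of the ER chaperone list in the LECs of each CS mouse (red) and RA mouse (blue), as log2(transcripts per 10,000 + 1), ordered by the log2 difference between groups. In 10 genes, among them Hsp90b1, Hspa5 and Pdia6, all 4 CS mice sit below all 4 RA mice, and Canx, P4hb and Sel1l overlap.

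Many ER chaperone promoters carry the ER stress response element, CCAAT, any 9 bases, then CCACG, which is bound by NF-Y and the stress sensor ATF6. Both strands of the 250 bases before each gene's start were searched in the RefSeq promoters of GRCm38.p6. The element was found in 37 of 32851 promoters (0.113%) and in 11 of the 6448 tested genes with a promoter in that table. Of the 17 ER chaperones matched by symbol, 7 held it, and these were Hsp90b1, Hspa5, Pdia6, Calr, Creld2, Dnajc3 and Canx. The first 5 of them were among the genes lower in every CS mouse, beside 10 of the 19 genes of the whole list and 2.13% of all genes tested. Dnajc3 and Canx were not. Whether the element bears on these differences was not tested. The 4 other tested genes with the element were Syvn1, Hnrnpa3, Pan2 and Acacb, with log2 differences from -0.21 to 0.04, and in each of them the groups overlapped. Shown here are the 250 bases before the start of the 4 whose CS and RA mice lay furthest apart, since they hold the letters these genes share. They are Hspa5 (chr2:34771840-34772089, plus strand), Hsp90b1 (chr10:86705445-86705694, minus strand), Pdia6 (chr12:17266339-17266588, plus strand) and Calr (chr8:84846932-84847181, minus strand), each written along its gene's own strand, with both ends of the element in capitals (CGTGG and ATTGG where it lies reversed).
Hspa5: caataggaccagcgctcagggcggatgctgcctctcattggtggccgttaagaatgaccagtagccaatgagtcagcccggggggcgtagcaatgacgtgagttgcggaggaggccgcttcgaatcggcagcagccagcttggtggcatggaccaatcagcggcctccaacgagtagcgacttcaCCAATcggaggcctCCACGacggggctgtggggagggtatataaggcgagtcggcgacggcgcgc
Hsp90b1: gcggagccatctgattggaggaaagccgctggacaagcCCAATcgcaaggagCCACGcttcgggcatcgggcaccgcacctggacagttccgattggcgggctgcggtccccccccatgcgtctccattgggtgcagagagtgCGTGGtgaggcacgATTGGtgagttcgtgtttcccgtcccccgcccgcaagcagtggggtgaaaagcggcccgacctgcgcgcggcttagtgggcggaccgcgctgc
Pdia6: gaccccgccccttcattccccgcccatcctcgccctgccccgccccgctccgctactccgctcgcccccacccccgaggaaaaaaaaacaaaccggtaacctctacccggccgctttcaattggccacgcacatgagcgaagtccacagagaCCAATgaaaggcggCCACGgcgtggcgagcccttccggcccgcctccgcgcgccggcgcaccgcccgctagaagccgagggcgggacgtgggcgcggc
Calr: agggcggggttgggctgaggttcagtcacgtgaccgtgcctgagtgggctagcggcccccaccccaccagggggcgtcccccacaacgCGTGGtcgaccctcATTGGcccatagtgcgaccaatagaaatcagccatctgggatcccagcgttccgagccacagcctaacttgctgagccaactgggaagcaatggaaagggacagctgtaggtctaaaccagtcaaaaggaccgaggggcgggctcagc
Hsp90b1 holds the element once in each direction, Calr only reversed, and the other pair only forward. In Hspa5 it ends 47 bases before the start and in Pdia6 80 bases before it. A match says where the letters lie and not that a factor was bound, and Pdia3, Manf, Serpinh1, Sdf2l1 and Xbp1 separated the groups without a match here or without a promoter in the table.

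The same genes were looked up in the blood endothelium of the same mice. In gCap cells (9988 cells), 12 of 18 ER chaperones tested were called lower in CS with limma, beside 3.97% of all genes tested there. In venous cells (1665 cells), Calr and Pdia6 of 19 were called lower, beside 0.0649%. Hspa5 had a log2 difference of -0.86 in LECs, -0.78 in gCap cells and -0.62 in venous cells, and Pdia6 of -0.72, -0.63 and -0.65. Hsp90b1 lay further apart, at -0.90 in LECs, -0.33 in gCap cells and -0.42 in venous cells. The difference between the LEC and gCap values was -0.57 for Hsp90b1 (95% interval -0.85 to -0.30), with an unadjusted limma p of 0.000638 and an adjusted p of 0.246. For Hspa5 it was -0.07 (95% interval -0.34 to 0.20), and for Calr -0.03 (95% interval -0.37 to 0.31).

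**Figure D4:**
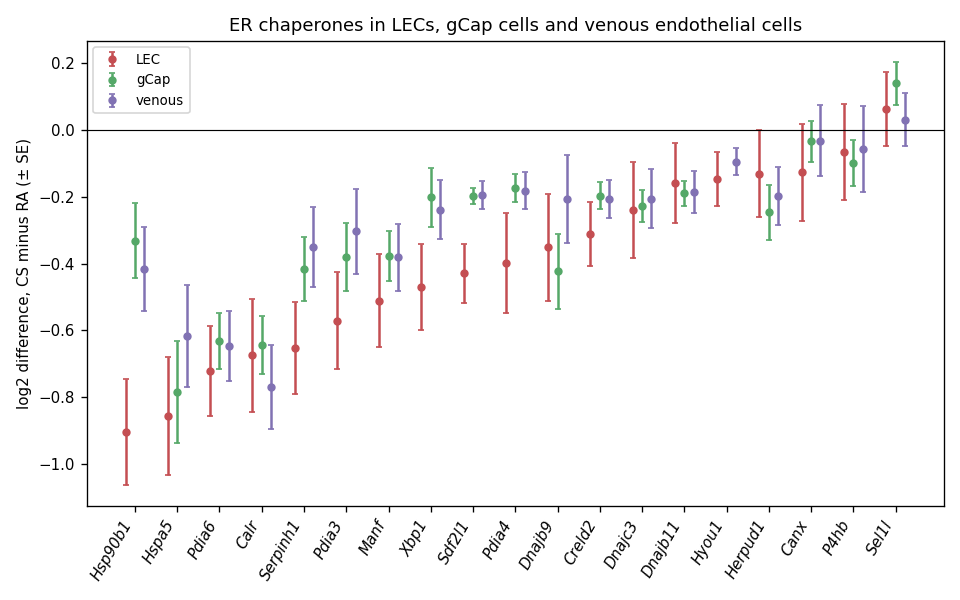
CS minus RA log2 differences (± SE) of the 19 genes of the ER chaperone list in LECs (red), gCap cells (green) and venous endothelial cells (purple) of the same 8 mice. Most values lie below 0 in all 3 types, Hsp90b1 is lowest in LECs at -0.90, and Hyou1 has no gCap value because it was found in too few gCap cells.

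No gene had a CS difference in LECs that passed as different from that in gCap cells (8674 tested, 0.0% called, smallest limma adjusted p 0.0569, 773 at an unadjusted p under 0.05, 8.91%). Against venous cells none of 8917 passed (0.0% called, smallest limma adjusted p 0.238, 613 at an unadjusted p under 0.05, 6.87%). Rtl8a and Trerf1 came nearest. Trerf1, a transcriptional regulator, was called higher in CS in gCap cells, as were 6.28% of genes there (log2 difference 0.58), and in venous cells (0.43), and the LEC value lay 0.61 below that of gCap cells (SE 0.0836, limma adjusted p = 0.0569). For Rtl8a, a retrotransposon-derived gene, gCap cells held less in CS (log2 difference -0.26, called), and the LEC value lay 0.57 above (SE 0.0830, limma adjusted p = 0.0569). Gulp1, an adaptor of engulfment, had a log2 difference 0.69 below that of gCap cells and 0.61 below that of venous cells. Sox4, S100pbp, 4930578G10Rik and Ndel1 were the others nearest to passing as higher against gCap cells, and Pitpnc1, Rbp7 and Airn as lower. Against venous cells they were 9030624G23Rik, Pmepa1, Tmem252 and Nav3 higher and Rbp7, Ccnd1 and Rassf9 lower. The clock output gene Dbp ranged from 0.617 to 1.18 in LECs of CS mice and from 0.192 to 0.518 in those of RA mice (log2 difference 0.38). The Dbp difference was 0.87 in gCap cells, where it was called.

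Of 17 lymphatic identity genes, Flt4 and Nrp2 were higher in every CS mouse than in every RA mouse, beside 2.97% of all genes tested. The median log2 difference of the list was -0.14, and -0.03 without F1. Nrp2 stood at 14.7 in C2, 15.6 in C5, 17.1 in D2 and 17.2 in D5, and at 7.78 in F1, 12.8 in F3, 12.6 in M1 and 9.98 in M3. The lowest CS mouse lay above the highest RA mouse, with F1 lowest (log2 difference 0.56, SE 0.173, limma adjusted p = 0.351). Flt4 ranged from 13.1 to 14.4 in CS and from 11.9 to 12.6 in RA, a log2 difference of only 0.15. Prox1 was 12.6 ± 2.83 in CS and 10.4 ± 1.36 in RA (SD, n = 4 each), and Mmrn1 26.4 ± 1.13 and 29.7 ± 5.99, both with overlap. Lyve1 ranged from 3.03 to 4.45 in CS and from 2.88 to 11.5 in RA, with F1 highest (log2 difference -0.66, limma adjusted p = 0.405, and -0.41 without F1).

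In the wider list of VEGF-C, angiopoietin and adrenomedullin signalling, 14 of 21 genes were tested and 13 lay above 0, with a median of 0.12, beside 0.02 over all genes tested. In gCap cells the median was 0.24, with 3 of 14 called higher by limma, beside 6.28% of all genes tested there. In venous cells it was 0.12, with none called. In LECs without F1, Angpt2 (-0.26), Tek (-0.06) and Adm (-0.34) lay below 0 and the other tested genes above. Without D5, Tek (-0.03) and Calcrl (-0.01) were among those below 0. Kdr, the VEGF receptor 2 gene, was 7.37 ± 0.295 in CS and 6.80 ± 0.727 in RA (SD, n = 4 each), and the angiopoietin receptor Tek 1.39 ± 0.450 and 1.27 ± 0.409. Angpt2 was 2.20 ± 0.476 in CS and 2.19 ± 1.40 in RA, since F1 held 0.239 and the other RA mice 2.10 to 3.22. Adm, adrenomedullin, was 0.312 ± 0.176 and 0.619 ± 0.187 (log2 difference -0.31, limma adjusted p = 0.435), and its receptor Calcrl 4.37 ± 0.837 and 4.16 ± 1.12. Of 17 tested genes of BMP, Notch, TGF-beta and S1P signalling, none separated the groups and the median was 0.09, or 0.04 without M3. The S1P receptor S1pr1 was 2.24 ± 0.366 in CS and 1.59 ± 0.534 in RA.

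Chemokines and scavengers gave no separation in 8 tested genes of 20. Ccl21a stood at 164 in C2, 158 in C5, 191 in D2 and 128 in D5, and at 125 in F1, 200.3 in F3, 198 in M1 and 208 in M3. F1 and D5 were the lowest, and the groups overlapped (log2 difference -0.18, 95% interval -0.53 to 0.18, limma adjusted p = 0.760). Without F1 every CS mouse lay below every RA mouse, and the log2 difference of Ccl21a was -0.35 (limma adjusted p = 0.544). Ackr3 was 0.486 ± 0.286 in CS and 1.37 ± 1.01 in RA, with F1 at 2.48 and M3 at 1.99 (log2 difference -0.59, and -0.37 without F1). In the larger subgroup alone the log2 difference of Ackr3 was -0.28, and the smaller subgroup, where its level was higher, had the larger share in RA mice given above, whose part in the difference was not tested. Il7 was 0.716 ± 0.168 and 0.514 ± 0.154. The 10 tested genes of leukocyte adhesion and checkpoint did not separate the groups, with a median of -0.08, and of 0.01 without F1 and 0.02 without C5. Icam1, the integrin ligand, was 3.26 ± 1.23 in CS and 3.83 ± 1.75 in RA.

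Of the junction list (17 tested), Cdh5, the endothelial cadherin, was higher in every CS mouse and plakoglobin, Jup, lower, beside the 2.97% and 2.13% of all genes. Cdh5 was 5.69 ± 0.465 in CS and 4.61 ± 0.361 in RA (SD, n = 4 each, log2 difference 0.25, limma adjusted p = 0.593, and 0.15 in the larger subgroup alone). Jup ranged from 1.69 to 1.90 in CS and from 1.93 to 2.22 in RA, a difference of -0.11, and of -0.03 in the larger subgroup alone. Among 14 tested genes of valves and collecting vessels, Klf2, the flow-responsive transcription factor, was the one that separated the groups, beside 2.13% of all genes tested, from 9.18 to 12.1 in CS and from 13.4 to 20.8 in RA (log2 difference -0.56, limma adjusted p = 0.332). Of the 3 collecting vessel markers, Cd9 was the 1 whose groups did not overlap, beside 2.13% of all genes tested. Cd9 ranged from 7.44 to 9.67 in CS and from 10.3 to 14.7 in RA (log2 difference -0.46, and -0.27 in the larger subgroup alone). The 3 markers summed to 10.0 to 11.7 in CS and to 12.2 to 18.4 in RA. The exact two-sided permutation p of that sum was 0.0286, unadjusted and the smallest this design allows. Cd9 made up most of the sum, at a mean of 10.6 beside 2.38 for Foxp2 and 0.0256 for Acta2. This p therefore largely repeats the Cd9 values, and Foxp2 had a log2 difference of 0.02. Among the sums of the other marker lists, the smallest exact permutation p was 0.0571 (pan-endothelial). None of the 18 tested matrix genes separated the groups, and Timp3 was 25.9 ± 3.28 and 28.6 ± 6.20.

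For lipid and fluid uptake (14 tested), Aqp1 ranged from 20.6 to 23.4 in CS and from 13.8 to 20.1 in RA, and the caveolar genes Cav2 and Cavin2 were lower in every CS mouse, beside 2.97% higher and 2.13% lower of all genes tested. Cavin2 ranged from 7.76 to 9.39 in CS and from 10.5 to 13.7 in RA (log2 difference -0.42, and -0.25 in the larger subgroup alone). For coagulation (13 tested), Mmrn2 and Anxa2 were lower in every CS mouse, beside the same 2.13%. Anxa2, the plasminogen and tPA receptor, ranged from 3.23 to 4.58 in CS and from 5.91 to 8.14 in RA (log2 difference -0.65, limma adjusted p = 0.157). Thrombomodulin, Thbd, was 1.47 ± 0.394 and 2.45 ± 0.485 with overlap (log2 difference -0.48, and -0.31 in the larger subgroup alone), and F8 2.43 ± 0.592 and 1.43 ± 0.737, with F1 at 0.334 (log2 difference of F8 0.55, and 0.28 without F1).

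Antigen presentation had the highest median of the lists with more than 3 tested genes, 0.28, with 16 of 17 tested genes above 0, but no gene separated the groups. The median was 0.17 without F1, with 15 above 0, and 0.15 without D2, with 12 above 0. The invariant chain gene Cd74 stood at 0.330 in C2, 1.07 in C5, 6.32 in D2 and 2.96 in D5, and at 0.525 in F1, 1.11 in F3, 1.75 in M1 and 0.469 in M3. D2 and D5 were the highest, and C2 was the lowest of all mice (log2 difference 0.65, 0.22 without D2, 1.04 without C2 and 0.43 in the larger subgroup alone). The class II genes H2-Aa (1.07 ± 0.810 in CS, 0.353 ± 0.150 in RA) and H2-Ab1 (1.02 ± 0.706 and 0.356 ± 0.273) were again highest in D2 and D5. The immune marker Ptprc was 0.646 in D2 and at most 0.119 in the other mice. A fit on only cells with a lymphatic marker and no Ptprc kept 49 of the 53 LECs of D2. In that fit Cd74 kept its direction and was not called. The part of Ptprc-holding cells in the size of these values was not tested. B2m, the class I light chain, was 13.9 ± 2.82 and 10.3 ± 3.53, with F1 at 5.04 (log2 difference of B2m 0.45, and 0.17 without F1). Of 13 tested interferon-stimulated genes, Gbp2 separated the groups, beside 2.97% of all genes tested, from 0.399 to 0.775 in CS and from 0.161 to 0.270 in RA (log2 difference 0.31, and 0.20 in the larger subgroup alone).

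Stress lists lay mostly below 0. The median of the 20 AP-1 and immediate-early genes, which also respond to tissue digestion, was -0.28, with 17 below 0 and 6 lower at an unadjusted p under 0.05, beside 3.7% of all genes tested. Btg2 was the one that separated the groups, beside 2.13% of all genes tested, from 4.29 to 5.79 in CS and from 6.89 to 8.07 in RA. Of 21 cytosolic chaperones, Hsp90ab1, Hspa8 and Fkbp4 were lower in every CS mouse, beside 2.13% of all genes tested. The median was -0.17, and it ran from -0.30 without C5 to -0.10 without M1, with -0.29 without F1. Hsp90ab1, the constitutive HSP90, ranged from 9.78 to 14.7 in CS and from 17.3 to 24.7 in RA (log2 difference -0.74, SE 0.173, limma adjusted p = 0.152, edgeR adjusted p = 0.0484, and 0.450 in limma on the larger subgroup alone). In that subgroup the log2 difference of Hsp90ab1 was -0.69. Hspa8 ranged from 5.55 to 8.99 and from 9.52 to 15.3. The inducible Hspa1a did not separate the groups, ranging from 2.36 to 8.65 in CS and from 1.46 to 11.8 in RA. In gCap cells the AP-1 list had a median of -0.55, with 9 of 18 called lower by limma. The cytosolic chaperones had -0.25 there, with 9 of 22 called lower, beside 3.97% of all genes tested in gCap cells. In venous cells the medians were -0.41 and -0.16, and no member was called.

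Nfkbia of the 14 tested NF-kB targets, Fth1 of the 21 antioxidant genes, and Cdkn1a, which is on both the corticosteroid (10) and the p53 (10) list, were lower in every CS mouse, beside 2.13% of all genes tested, and in each F1 was the highest mouse. Nfkbia, the NF-kB inhibitor, was 7.01 ± 1.75 in CS and 20.8 in F1, with 9.51 to 12.7 in the other RA mice. Fth1, ferritin heavy chain, ranged from 26.1 to 29.7 in CS and stood at 92.8 in F1, with 34.4 to 49.7 in the other RA mice. Cdkn1a, the cell cycle inhibitor p21, ranged from 2.86 to 3.38 in CS, was 9.41 in F1 and lay between 3.81 and 4.19 in the other RA mice. Without F1 the log2 difference of Fth1 moved from -0.82 to -0.53 and that of Cdkn1a from -0.59 to -0.33. Neutrophil markers also stood out in F1, at the 8.06 given above, and their part in these values was not tested. The antioxidant gene Nqo1 was 0.429 ± 0.0838 and 0.434 ± 0.0375. Of the aryl hydrocarbon receptor list 3 genes were tested and none separated the groups, and Cyp1a1 and Cyp1b1, its usual targets, stood below 0.05 in the mean of either group. The clock output list (10 tested) had Dbp as the one gene apart, beside 2.97% of all genes tested, and the opposite clock phase (5 tested) and the cold-inducible pair had none.

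**Figure D5:**
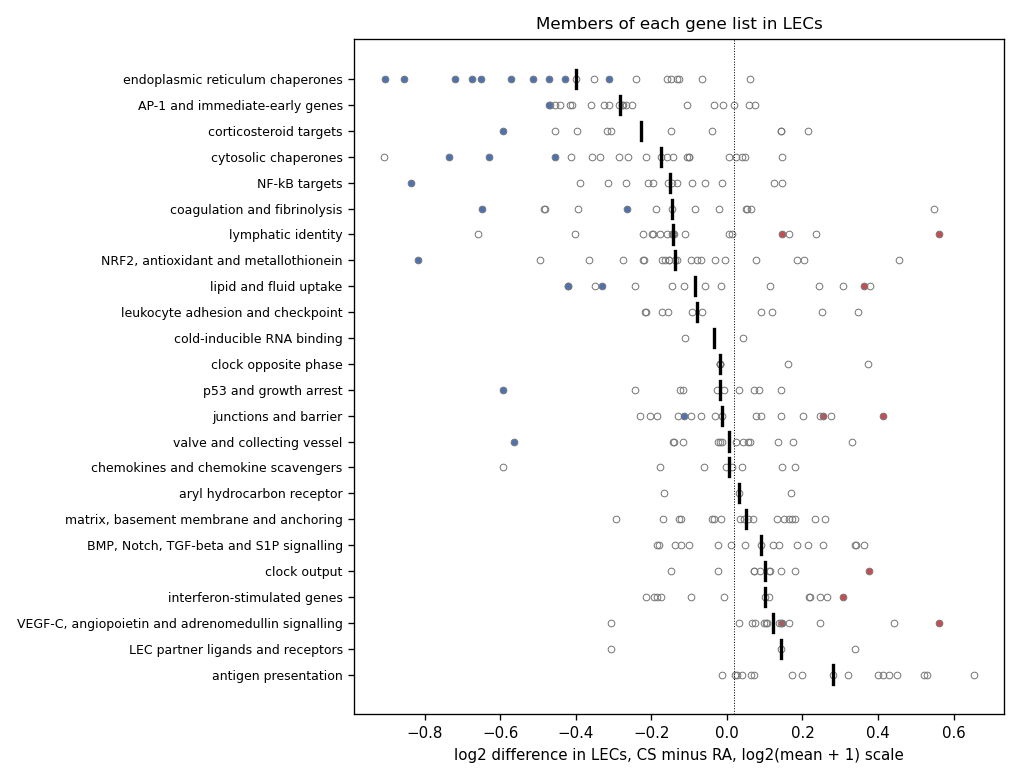
CS minus RA log2 differences in LECs of every tested gene of the 24 lists (points), with the median of each list (black bar) and of all genes tested (dotted line, 0.02). Filled points are genes whose CS and RA mice do not overlap, red where higher and blue where lower in CS, and 10 of them lie in the ER chaperone list at the left.

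Ligands and receptors that pair with LEC genes were located in the 22 types that had at least 20 cells in at least 3 mice of each group. Vegfc was highest in venous cells at 8.56 ± 1.61 (SD, n = 8 mice), with arterial cells next at 1.63, and Vegfd in alveolar fibroblasts at 4.38 ± 1.14, with adventitial fibroblasts next at 2.08 ± 0.289. LECs themselves held 0.0205 and 0.0842. Ccr7, the receptor for CCL21, was highest of the 22 in B cells at 5.56 and next in T cells at 2.82 ± 0.643. The 40 mature dendritic cells, too few per mouse to be compared, held Ccr7 at 8.14 over all their cells. Angpt2 was highest in LECs at 2.20 ± 0.969, with peribronchial fibroblasts next of the 22 at 0.516. Pericytes, which are among the 26 types but not the 22, held Angpt2 at 1.54. S1pr1 was highest in aerocytes at 9.17 and stood at 1.92 in LECs, and Cxcr4 was highest in nonclassical monocytes at 8.05. Between CS and RA mice, 68 such tests over 22 types gave no adjusted p under 0.486, and 4 had an unadjusted exact permutation p under 0.05. Ccr7 in B cells was 4.27 ± 0.630 in CS and 6.85 ± 0.657 in RA (SD, n = 4 each) with an exact two-sided permutation p of 0.0286, which is the smallest this design allows. The other three had the same p. Angpt2 in arterial cells was 0.522 ± 0.177 in CS and 0.116 ± 0.0674 in RA, Vegfd in ciliated cells 0.797 ± 0.140 and 0.469 ± 0.0727, and Vegfd in gCap cells 0.238 ± 0.0344 and 0.148 ± 0.0255 (SD, n = 4 each).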

How the data were processed

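The mice, exposures and lanes were taken from the labels, and exposure times and ages from the study's methods. Per the labels, the authors aligned reads with STAR 2.7.3a (STARsolo) to GRCm38.p6. They dropped cells of low depth, subtracted free RNA by SoupX and gave each cell its type. The matrix the authors deposited is called normalized but holds UMIs per gene and cell after that subtraction, here taken as estimated counts, of which 1.28% are whole numbers within 1e-06. The 1032 cells labelled multiplet or cell cycle were left out, which leaves 40074 cells of 32 types. No doublet caller was run.

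Each cell was scaled to 10000 transcripts and averaged over the LECs of a mouse (at least 20 cells). Fits on the larger subgroup alone kept every mouse, with 17 cells of M3, below that minimum, and 21 of F1. Genes found in at least 10% of LECs of either group were tested with limma 3.58.1 (eBayes with trend, R 4.3.3) on log2(mean + 1), with Benjamini-Hochberg adjustment at 0.05. A fold change on this scale understates that of low genes. Comparisons of LECs with gCap or venous cells used the difference of these log2 values within each mouse. For single values, exact permutation tests over the 70 assignments were used, two-sided. The alternatives were other pseudocounts, filters and scalings, summed UMIs, edgeR 4.0.16 on summed UMIs rounded to whole numbers, and lane as a block. Others were labelled sex as a term, a Wilcoxon test over cells, the larger subgroup alone and leaving out each mouse. Scripts were tested on simulated data.

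The labels place 1 CS and 1 RA mouse in each of 4 lanes, so lane pairs them. The correlations of same-lane deviations from the group means were 0.056, 0.0474, -0.003 and 0.0288, and those across lanes ran from -0.101 to 0.100.

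Named genes were up to 10 in each direction by the size of the difference among called genes, filled by the smallest p among genes whose groups did not overlap, and any gene of the 24 lists. For the differences from gCap and venous cells up to 5 in each direction were named. Further named were the 15 genes with the highest ratio to the next type, among those in at least 25% of LECs, and the 10 most abundant. The subgroups' leading genes, the promoter matches, Lcn2, eGFP and tdTomato were named after their values were seen. A single gene of these lists is not reported here. The members and lists were chosen with earlier results of these data known. Subgroups came from k-means (scikit-learn 1.9.0) on 10 principal components of the 1000 most variable genes.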

Additional observations from a re-analysis of the deposited data

Results flagged for a closer look

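A sample was singled out where its gap to the nearest mouse of its group exceeded Dixon's 95% limit for 4 samples as a share of the group's range, which chance reaches in about 1 in 20 groups. Of 196 groups of 4 mice examined, 20 had such a mouse, 7 times D2 and 8 times F1, the mouse with the second fewest LECs (35). No explanation was tested for any of them.

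In RA mouse F1, Lcn2, which encodes a neutrophil and epithelial iron-binding protein, stood at 49.9 transcripts per 10,000 against 6.71 to 9.82 in the other RA mice. Cdkn1a stood at 9.41 against 3.81 to 4.19, and Ccl21a at 125 against 198 to 208. B2m stood at 5.04 against 11.8 to 12.3, and F8 at 0.334 against 1.63 to 1.90. The summed markers of neutrophils were 8.06 against at most 0.141 in F1's group, those of fibroblasts 1.64 against 0.185 to 0.229, and those of macrophages 1.09 against 0.289 to 0.399.

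In CS mouse D2, the erythrocyte markers summed to 22.3 against 0.404 to 0.941 in the other CS mice, the immune marker Ptprc to 0.646 against 0.0160 to 0.119, and the airway markers to 3.83 against at most 0.534. Among single genes of D2, Gbp2 stood at 0.775 against 0.399 to 0.431, Cdkn1a at 3.38 against 2.86 to 2.92, Dnajb11 at 0.644 against 0.373 to 0.397, and Mmrn2 at 2.14 against 2.41 to 2.44.

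The remaining 5 were single values of other mice. Airway markers summed to 139 in RA mouse F3, against 0.113 to 7.36, and macrophage markers to 1.27 in CS mouse D5, against 0.299 to 0.446. Pdia6 stood at 2.67 in RA mouse M1 against 1.75 to 1.91, Anxa2 at 8.14 in RA mouse M3 against 5.91 to 6.18, and Dbp at 1.18 in CS mouse C2 against 0.617 to 0.679.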

How the results depend on the processing

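The count of genes called between CS and RA in LECs moved from 0 to 4 with lane as a replicate block, 7 with genes in at least 25% of cells, 11 on summed UMIs, 14 with edgeR and 39 with a Wilcoxon test over cells (Bonferroni). It was 0 under every other alternative run and with each mouse left out. One of these took the labelled sex as a term. The sex-linked transcripts went against that label in the 4 CS libraries, so that fit cannot adjust for sex. Mice with at least 10 cells were the same 8 mice. The count against gCap was 1 (Trerf1) after quantile normalization and 0 to 2 with a mouse left out, the 2 without RA replicate 2 (F3) being Airn and Piezo2, which were named after their values were seen. The cause of these moves was not tested. Of ER chaperones, 10 separated the groups, 7 to 12 under all alternatives run and 10 to 12 with a mouse left out.

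Of 84 genes whose CS and RA levels or difference are given, 15 turned direction in 27 of 1596 values, and none of these 15 was called. With a mouse left out, P4hb ran from -0.143 to 0.0327, Angpt2 from -0.261 to 0.329, Tek from -0.0609 to 0.151, Icam1 from -0.355 to 0.0619 and Timp3 from -0.205 to 0.0125, each turning without RA replicate 1 (F1), and Tek also without CS replicate 4 (D5). Calcrl ran from -0.0246 to 0.204, Nqo1 from -0.0253 to 0.0363, Pan2 from -0.0997 to 0.00578 and Acacb from -0.0148 to 0.127. With equal numbers of cells per mouse, Jup was 0.0133, Cd74 -0.0575, Calcrl -0.00180, Il7 -0.0436 and Nqo1 0.0632. Quantile normalization gave Mmrn1 0.0790 and Timp3 0.176, the mean of log values gave Ccl21a 0.0729 and Icam1 0.0118, summed UMIs gave Icam1 0.00831, and edgeR gave Angpt2 -0.0543. The larger subgroup alone gave Sel1l -0.0242 and Calcrl -0.120, and Calcrl was -0.0617 without the 16 cells with blood vessel genes. The lane block changed no other call. The 24 LECs of M3 and 35 of F1 limit the precision of those means, and low transcripts rest on few molecules.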

Other observations

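The reporter transcripts were measured in the same cells. In LECs, eGFP stood at 3.35 ± 0.949 transcripts per 10,000 (SD, n = 8 mice, from 2.19 to 5.43) and tdTomato at 1.27 ± 0.575. In gCap cells eGFP stood at 5.73 ± 0.981 and tdTomato at 2.74 ± 0.807, and in venous cells at 4.55 ± 1.09 and 2.26 ± 0.564. In AT2 cells, which express Sftpc, eGFP stood at 71.2 ± 8.83 and tdTomato at 0.0574 ± 0.0385. The source of eGFP transcripts in endothelial cells was not tested.

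Lcn2 ranged from 2.03 to 6.68 in LECs of CS mice and from 6.71 to 9.82 in those of RA mice other than F1, which held 49.9. Every CS mouse lay below every RA mouse, and the limma log2 difference of -1.67 (SE 0.410) had an adjusted p of 0.168. Without F1 the log2 difference of Lcn2 was -1.04, with a limma adjusted p of 0.0939.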
